A study of Mus musculus with 29 samples.

Results

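The myeloid lineage genes examined here are Spi1, Cebpa, Cebpb, Cebpe, Csf1r, Csf3r, Csf2rb, Mpo and Lyz2, and the members are the windows that the deposited methylation table names for one of these 9 genes. The table held 42 such windows among 260686 in all. There were 10 for Spi1, 3 for Cebpa, 1 for Cebpb, 2 for Cebpe, 9 for Csf1r, 5 for Csf3r, 6 for Csf2rb, 4 for Mpo and 2 for Lyz2, and all 42 had enough values to be tested. Each window gives a percent DNA methylation score (%DNAm) for lung tissue, as measured by whole-genome methyl-sequencing (WGMS), an assay in which enzymes convert unmethylated cytosines before the DNA is read. Windows are numbered from the 5′ end of each gene, so that Spi1-w1 is the window over the annotated start of Spi1.

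PU.1, the product of Spi1, and the C/EBP factors encoded by Cebpa, Cebpb and Cebpe are transcription factors that steer blood progenitors towards granulocytes, monocytes and macrophages. They act on the genes for the receptors of colony-stimulating factors, which pass on growth and survival signals, and on the genes for enzymes that mature myeloid cells store in granules or secrete. In the lung, such cells are the resident macrophages and the neutrophils, eosinophils and monocytes that enter during inflammation. Methylation of CpGs tends to be low over regulatory DNA that a cell type uses, and a homogenate gives the average over all cells in it.

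The libraries came from 29 BALB/c female offspring, 13 weeks old. In the Sham (n = 7) and Sham-OVA (n = 7) groups the dam had received intranasal saline, and in the PM (n = 7) and PM-OVA (n = 8) groups the dam had received fine particulate matter (PM2.5) in saline, before mating, through gestation and until weaning. The offspring themselves were not given PM2.5. Sham-OVA and PM-OVA offspring were sensitised to ovalbumin (OVA) with an aluminium adjuvant and then breathed nebulised OVA, which gives allergic airway disease, whereas Sham and PM offspring breathed nebulised saline. The methods do not say plainly whether these controls were also sensitised. The labels give the tissue as Lung (RML) and the methods describe lung homogenate from the right lower lobe, frozen after a lung function test. Dams and litters are not given in the labels, so some offspring may share a dam, and p-values measure the spread between these libraries.

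Each library gave values for between 258952 and 260135 windows, and no pair was identical. Sham replicate 1, labelled female by the series, had a value in 1224 windows of the Y chromosome, whereas the other libraries had 29 to 46. Without that library the member windows that passed the test below numbered 25 after OVA in Sham offspring and 25 after OVA in PM offspring. The counts equal those with it, but in Sham offspring Spi1-w8 lost its call (limma adjusted p = 0.101) and Csf2rb-w5 gained one (limma adjusted p = 0.0479). The table gives percentages alone, so how many reads lie behind a %DNAm score is unknown here, and it has no expression values, so the tissue label was not checked against expressed markers.

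Sequences of the windows on which the results turn are given first, from GRCm38. Each is the stretch of 300 bases with the most CpGs in its window outside untranslated exons, read 5′ to 3′ on the plus strand, which is the strand of these genes, with each CpG in capitals because CpGs carry the methylation that was scored. The Spi1-w1 stretch (chr2:91082865-91083164) lies in the first intron downstream of the gene's annotated start, the Spi1-w5 stretch (chr2:91097009-91097308) in the first intron of the transcript Spi1-201, and the Spi1-w9 stretch (chr2:91115086-91115385) wholly in the last coding exon, which encodes the ETS domain by which PU.1 binds DNA. The Csf2rb-w2 stretch (chr15:78332258-78332557) is intronic. The Mpo-w1 stretch (chr11:87795182-87795481) holds 176 coding bases. The Cebpa-w1 stretch (chr7:35119695-35119994) is wholly coding and shows a CpG-dense window for contrast.
Spi1-w1: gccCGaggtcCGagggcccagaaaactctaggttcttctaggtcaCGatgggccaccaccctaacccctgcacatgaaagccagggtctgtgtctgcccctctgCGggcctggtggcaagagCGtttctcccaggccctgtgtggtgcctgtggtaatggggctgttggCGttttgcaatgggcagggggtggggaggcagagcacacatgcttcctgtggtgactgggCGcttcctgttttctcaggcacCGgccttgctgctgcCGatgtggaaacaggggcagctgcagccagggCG
Spi1-w5: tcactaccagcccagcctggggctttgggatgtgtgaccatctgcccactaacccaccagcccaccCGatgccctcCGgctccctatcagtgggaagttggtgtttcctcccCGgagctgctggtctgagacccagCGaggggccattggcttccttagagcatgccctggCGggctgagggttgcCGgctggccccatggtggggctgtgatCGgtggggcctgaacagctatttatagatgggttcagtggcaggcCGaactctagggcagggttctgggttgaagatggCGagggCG
Spi1-w9: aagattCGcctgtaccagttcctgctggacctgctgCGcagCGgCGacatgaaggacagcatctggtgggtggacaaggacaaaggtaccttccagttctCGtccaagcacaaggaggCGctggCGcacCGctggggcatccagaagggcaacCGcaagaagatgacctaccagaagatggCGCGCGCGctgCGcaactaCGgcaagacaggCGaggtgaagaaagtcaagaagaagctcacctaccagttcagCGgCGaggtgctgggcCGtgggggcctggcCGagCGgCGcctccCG
Csf2rb-w2: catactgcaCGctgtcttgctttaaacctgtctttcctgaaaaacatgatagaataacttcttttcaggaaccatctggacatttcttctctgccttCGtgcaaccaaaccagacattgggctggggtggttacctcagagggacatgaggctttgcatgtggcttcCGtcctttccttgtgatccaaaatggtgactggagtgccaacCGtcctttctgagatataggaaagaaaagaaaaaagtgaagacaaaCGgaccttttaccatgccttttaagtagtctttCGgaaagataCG
Mpo-w1: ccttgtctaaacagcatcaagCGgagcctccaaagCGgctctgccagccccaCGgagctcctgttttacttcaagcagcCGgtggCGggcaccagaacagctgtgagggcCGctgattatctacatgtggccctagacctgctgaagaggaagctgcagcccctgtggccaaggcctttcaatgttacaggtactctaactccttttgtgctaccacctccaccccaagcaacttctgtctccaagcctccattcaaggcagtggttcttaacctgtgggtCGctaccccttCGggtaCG
Cebpa-w1: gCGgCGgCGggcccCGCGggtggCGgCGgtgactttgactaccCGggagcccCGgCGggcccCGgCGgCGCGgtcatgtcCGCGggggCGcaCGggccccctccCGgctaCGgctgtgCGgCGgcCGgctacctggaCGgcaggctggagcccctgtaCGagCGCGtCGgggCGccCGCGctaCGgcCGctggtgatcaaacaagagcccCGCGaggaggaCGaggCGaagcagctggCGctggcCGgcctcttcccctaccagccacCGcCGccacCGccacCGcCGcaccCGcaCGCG

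The 300 bases held 10 CpGs in Spi1-w1, 10 in Spi1-w5, 23 in Spi1-w9, 7 in Csf2rb-w2, 9 in Mpo-w1 and 47 in Cebpa-w1. These stretches were searched on both strands for GAGGAAGT, an 8-base form of the ETS site that PU.1 binds, for TTGCNNAA, a C/EBP site, and for TGTGGT, a RUNX site, and a match is a description of letters only. The Spi1-w1 stretch held 1 match to TTGCNNAA and 3 to TGTGGT, none overlapping another, and the other 5 stretches held none of the 3. The stretch of Csf2rb-w1 chosen in the same way (chr15:78326841-78327140), not printed here, held 1 match to TGTGGT. For comparison, GAGGAAGT occurred in 3.20% of 32851 RefSeq promoters of 300 bases, TTGCNNAA in 10.8% and TGTGGT in 16.8%. Over whole windows, GAGGAAGT matched at least once in 14 of the 42, among them Spi1-w1, Csf2rb-w1 and Mpo-w1 with 1 match each and not Spi1-w5 or Csf2rb-w2. The motif was present in 24.3%, 26.4% and 20.9% of the table's windows within 10% of the length of Spi1-w1, Csf2rb-w1 and Mpo-w1.

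OVA challenge came with lower methylation over most of the myeloid windows that changed. In Sham offspring 25 of the 42 windows were called, meaning an adjusted p under 0.05 (limma, Benjamini-Hochberg over 259167 windows), of which 18 were lower and 7 higher in Sham-OVA. Of all tested windows, 35.6% were called in this comparison, with 22.3% lower and 13.3% higher. In PM offspring 25 of 42 windows were called as well, 21 lower and 4 higher in PM-OVA, where 44.1% of all windows were called, with 34.8% lower and 9.26% higher. The median difference of the 42 windows was -1.53 percentage points in Sham offspring and -2.03 in PM offspring, against -0.414 and -1.03 over all tested windows. After each library was centred on its median difference from all libraries, the member medians were -1.13 and -1.05 points, and their order turned. The medians over all windows were then -0.0207 and -0.0534 points, so centring raised differences more in PM than in Sham offspring.

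A stricter class, the differentially methylated region (DMR), needs an adjusted p under 0.05 and group means at least 10 percentage points apart. In Sham offspring 5 member windows were DMRs, 4 lower (Spi1-w5, Csf2rb-w1, Csf2rb-w2 and Mpo-w1) and 1 higher (Spi1-w9). In the same comparison 0.775% of all windows were DMRs, with 0.296% lower and 0.479% higher. In PM offspring 6 were DMRs, the same 5 and Spi1-w1, 5 of them lower and 1 higher, against 0.584% of all windows, with 0.321% lower and 0.263% higher. With the libraries centred, Csf2rb-w2 (-9.82 points) and Mpo-w1 (-9.69 points) fell short of the minimum in PM offspring, which left 4 DMRs there, while the 5 in Sham offspring stayed above it. The 2 OVA comparisons share no libraries, but both came from 1 fit with a common estimate of the spread. In all, 22 member windows were called in both, each with the same sign, 18 lower and 4 higher, while 14 were called in neither. The share of all windows called in both is not given here, so these counts cannot be set against it. With the libraries centred, 17 member windows were lower and 7 higher in Sham-OVA, where 36.9% of all windows were called, 18.4% lower and 18.5% higher. In PM-OVA 17 were lower and 9 higher, where 42.2% of all windows were called, 20.4% lower and 21.8% higher. Lower calls thus outnumbered higher ones among all windows only without centring, and among the members with and without it.

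**Figure D1:**
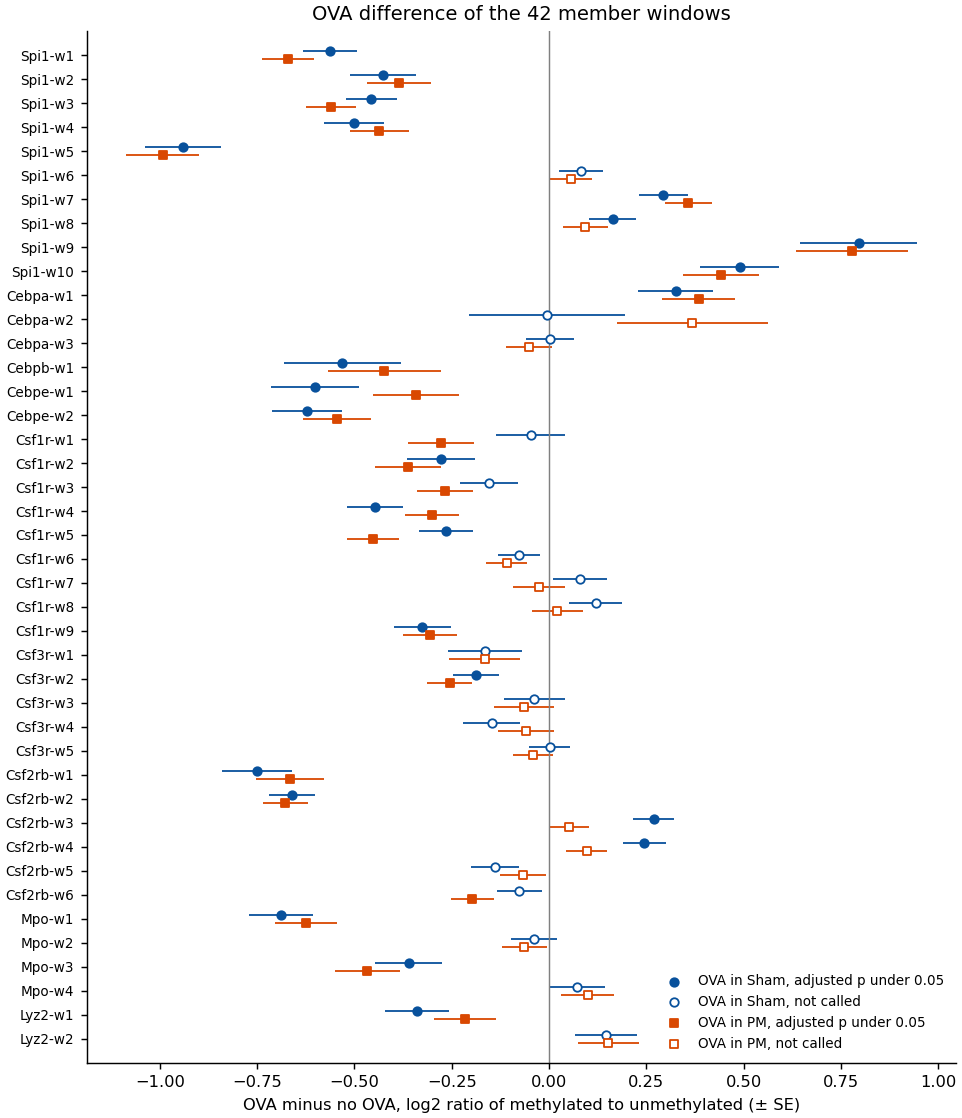
OVA difference of each of the 42 member windows, on the log2 scale of methylated over unmethylated percent, OVA minus unchallenged offspring (x axis, bars are the SE of the fit), for Sham offspring (blue circles) and PM offspring (orange squares). Filled symbols mark an adjusted p under 0.05. Spi1-w5 stands furthest to the left at -0.94 and -0.99 and Spi1-w9 furthest to the right at 0.79 and 0.78.

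Spi1 was split along its length. The 5 windows from its annotated start onwards fell after OVA in both kinds of offspring, the sixth was not called, and w7, w9 and w10 over the distal part rose in both. Spi1-w5 (chr2:91096853-91099453, 49 CpGs) begins inside the first exon of Spi1-201, whose start at position 91096096 lies in the window before it, and runs through the whole first intron into the second exon. Its %DNAm had a lowest, median and highest value of 62.6, 69.6 and 70.4 in Sham and of 47.3, 51.9 and 58.5 in Sham-OVA. In PM the values were 60.4, 67.5 and 70.8, and in PM-OVA 47.6, 49.9 and 53.1. Every one of the 15 challenged libraries was below every one of the 14 unchallenged libraries.

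In Sham offspring the mean fell, being 67.7% ± 3.07 (SD, n = 7) without and 51.9% ± 3.68 (SD, n = 7) with OVA, which is -15.8 percentage points and a log2 ratio of -0.94 with an SE of 0.10 (limma adjusted p = 4.73e-08). In PM offspring the mean fell, being 66.9% ± 3.52 (SD, n = 7) without and 50.1% ± 2.20 (SD, n = 8) with OVA, which is -16.8 points and a log2 ratio of -0.99 with an SE of 0.09 (limma adjusted p = 8.09e-09). Only 0.112% of all tested windows had a larger absolute difference in Sham offspring and 0.0529% in PM offspring.

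Spi1-w1 (chr2:91080437-91084602) holds 1953 bases upstream of the gene's annotated start and that start itself. The transcripts that begin in Spi1-w1 are not tagged basic in the annotation. The only Spi1 transcript so tagged begins in Spi1-w4, so Spi1-w1, Spi1-w2 and Spi1-w3 lie upstream of its start. The values of Spi1-w1 ran from 58.4 to 62.5 (median 59.8) in Sham, from 45.8 to 53.3 (median 49.4) in Sham-OVA, from 56.7 to 62.5 (median 61.1) in PM and from 45.3 to 52.0 (median 48.9) in PM-OVA. The challenged and unchallenged ranges did not overlap. The difference was -9.81 points in Sham offspring (log2 ratio -0.56, SE 0.07, limma adjusted p = 5.60e-07), just short of the DMR minimum, and -11.7 points in PM offspring (log2 ratio -0.67, SE 0.07, limma adjusted p = 1.67e-08). Between these windows, Spi1-w2, Spi1-w3 and Spi1-w4 differed by -6.11, -6.76 and -7.56 points in Sham offspring and by -5.52, -8.39 and -6.59 in PM offspring, all called.

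Spi1-w9 (chr2:91113404-91115447) covers the distal coding exons, with 525 coding bases in 2044, and it rose. Its lowest, median and highest values were 38.3, 40.5 and 48.0 in Sham and 49.1, 54.2 and 65.5 in Sham-OVA. They were 33.6, 40.9 and 48.7 in PM and 47.4, 52.7 and 65.5 in PM-OVA. The ranges lay 1.12 points apart in Sham offspring and overlapped in PM offspring, and the spread within groups was wider than in Spi1-w5. In Sham offspring the mean rose, being 41.5% ± 3.14 (SD, n = 7) without and 55.3% ± 5.34 (SD, n = 7) with OVA (log2 ratio 0.79, SE 0.15, limma adjusted p = 0.000153). In PM offspring the mean rose, being 40.5% ± 5.03 (SD, n = 7) without and 54.0% ± 6.27 (SD, n = 8) with OVA (log2 ratio 0.78, SE 0.14, limma adjusted p = 9.64e-05).

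Of the other distal windows, Spi1-w7 was higher by 4.19 points after OVA in Sham offspring and by 5.13 in PM offspring, and Spi1-w10 by 8.43 and 7.60 points, all called. Spi1-w10 also overlaps the neighbouring gene Mybpc3, a cardiac sarcomere gene, and only 309 of its bases belong to Spi1. Spi1-w8 was 2.39 points higher after OVA in Sham offspring (limma adjusted p = 0.0356) and 1.37 in PM offspring (limma adjusted p = 0.200), and after centring it was called in PM offspring as well (2.34 points, limma adjusted p = 0.0344). In a fit of the Sham and Sham-OVA libraries alone the limma adjusted p was 0.0808, and in the fit of all groups it ran from 0.0602 to 0.101 without any 1 of Sham replicates 1 and 5 or Sham-OVA replicates 1, 4, 5 and 6. The mean of w1 to w5 minus the mean of w7 to w10, a split at w6 chosen after the values were seen, ran from 8.17 to 13.1 points in Sham (median 12.8) and from 6.08 to 15.1 in PM (median 12.8). In Sham-OVA it ran from -11.0 to -0.348 (median -5.36) and in PM-OVA from -11.9 to -2.26 (median -5.09). Every unchallenged library was thus more methylated over the proximal than the distal windows, and every challenged library less.

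**Figure D2:**
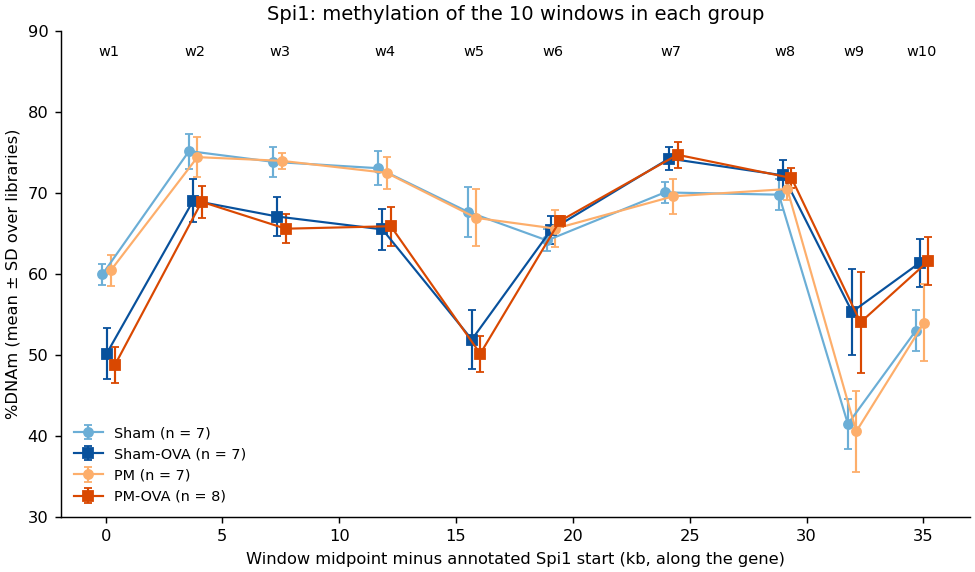
%DNAm of the 10 Spi1 windows by group (y axis, mean ± SD over libraries) against the distance of each window's midpoint from the annotated start of Spi1 in kb (x axis). The Sham-OVA and PM-OVA lines lie below the Sham and PM lines from w1 to w5, meet them at w6 and lie above them at w7, w9 and w10.

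The C/EBP genes gave smaller values, and their levels differed widely. Cebpe, which encodes the factor needed for late granulocyte maturation, fell in both windows. Cebpe-w2 (chr14:54707711-54710763), over the distal end of the gene and beyond, had values of 76.1 to 81.5 (median 77.7) in Sham, 65.5 to 74.1 (median 69.4) in Sham-OVA, 76.8 to 80.5 (median 77.5) in PM and 67.7 to 75.3 (median 70.1) in PM-OVA. Only 404 of its 3053 bases belong to Cebpe. The challenged libraries all lay below the unchallenged ones. The log2 ratio was -0.62 with an SE of 0.09 in Sham offspring, or -8.43 points (limma adjusted p = 6.26e-06), and -0.54 with an SE of 0.09 in PM offspring, or -7.43 points (limma adjusted p = 1.65e-05).

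Cebpe-w1 (chr14:54710998-54713081) holds the annotated start. It ran from 70.5 to 74.8 (median 72.6) in Sham and from 60.3 to 69.3 (median 63.5) in Sham-OVA, without overlap, and from 65.3 to 77.5 (median 74.0) in PM and 59.6 to 73.6 (median 67.2) in PM-OVA, with overlap. The difference was -9.26 points in Sham offspring (limma adjusted p = 0.000164) and -5.06 points in PM offspring (limma adjusted p = 0.0130). The PM value lost its call without the 2 PM-OVA libraries that the labels name Rel (-3.66 points, limma adjusted p = 0.0638) and after the libraries were centred (limma adjusted p = 0.0510).

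Cebpa and Cebpb, the founding members of the family, lie in CpG-dense DNA with little methylation. Cebpa-w1 (chr7:35119675-35120012), wholly coding, held 49 CpGs in 338 bases and had values of 0.201 to 0.623% in Sham and 0.391 to 1.08% in Sham-OVA. In PM it had 0.160 to 0.647% and in PM-OVA 0.636 to 0.950%. The differences of 0.359 and 0.395 points were called (limma adjusted p = 0.00995 and 0.00158), but the ranges overlapped in both comparisons, and on the untransformed percent scale the adjusted p was 0.290 and 0.204. Cebpa-w3 (chr7:35120504-35123179), at the 3′ end of the gene and beyond, ran from 28.5 to 31.2% in Sham, 26.7 to 33.2% in Sham-OVA, 26.5 to 32.8% in PM and 27.6 to 31.2% in PM-OVA. These ranges overlapped, and the window was not called (limma adjusted p = 0.980 and 0.510). Cebpa-w2, with group means of 0.537 to 1.07%, was not called either (limma adjusted p = 0.985 and 0.125), but in PM offspring it was called higher after centring (1.22 points, limma adjusted p = 0.000500) and in a fit of the PM and PM-OVA libraries alone (limma adjusted p = 0.0305). Centring moved the median difference of all windows in PM offspring from -1.03 to -0.0534 points, which is large beside those group means.

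Cebpb-w1 (chr2:167689896-167690365) had values of 2.81 to 4.14% in Sham, 1.2 to 2.89% in Sham-OVA, 2.07 to 4.33% in PM and 1.2 to 3.00% in PM-OVA, and the ranges overlapped in both comparisons. Its differences of -1.21 and -0.973 points were called (limma adjusted p = 0.00681 and 0.0193). The second was not called without PM replicate 7 (limma adjusted p = 0.0558) or on the percent scale (limma adjusted p = 0.0501). After the libraries were centred the difference was -0.814 points in Sham offspring (limma adjusted p = 0.121) and 0.0069 points in PM offspring (limma adjusted p = 0.925). The annotated starts of both genes lie in windows that the table names for the neighbours Gm45091 and Tmem189, where group means were 0.349 to 0.715% and 0.0137 to 0.323%. The window over the Cebpb start was called higher in PM offspring (0.309 points, limma adjusted p = 0.0298), opposite to Cebpb-w1, but PM-OVA replicate 6 stood at 1.60% and the other PM-OVA libraries at 0.0588 to 0.253%, and without it the difference was 0.126 points (limma adjusted p = 0.00995). It was not called in Sham offspring (-0.0531 points, limma adjusted p = 0.686).

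Csf2rb encodes the common beta subunit of the receptors for GM-CSF, IL-3 and IL-5, and it gave the largest differences among the 3 receptor genes. Csf2rb-w1 (chr15:78324151-78328760) holds the starts of all 8 annotated transcripts. Its lowest, median and highest values were 62.7, 67.5 and 71.4 in Sham, 49.9, 53.8 and 59.4 in Sham-OVA, 62.4, 65.9 and 68.8 in PM, and 50.7, 53.7 and 57.9 in PM-OVA. The challenged and unchallenged ranges did not overlap. In Sham offspring the mean fell, being 67.1% ± 2.83 (SD, n = 7) without and 54.6% ± 3.57 (SD, n = 7) with OVA (log2 ratio -0.75, SE 0.09, limma adjusted p = 3.83e-07). In PM offspring the mean fell, being 65.6% ± 2.44 (SD, n = 7) without and 54.4% ± 2.69 (SD, n = 8) with OVA (log2 ratio -0.67, SE 0.09, limma adjusted p = 8.52e-07).

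Csf2rb-w2 (chr15:78328761-78334773), is wholly intronic. It ran from 70.2 to 72.9 (median 70.5) in Sham, from 58.6 to 61.9 (median 60.4) in Sham-OVA, from 68.6 to 73.3 (median 71.2) in PM and from 56.2 to 63.1 (median 60.4) in PM-OVA. The ranges lay 8.33 points apart in Sham offspring and 5.50 in PM offspring. The log2 ratio was -0.66 with an SE of 0.06 in Sham offspring, or -10.5 points (limma adjusted p = 7.27e-09), and -0.68 with an SE of 0.06 in PM offspring, or -10.8 points (limma adjusted p = 1.77e-09).

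Further along, Csf2rb-w3 and Csf2rb-w4 were higher by 3.88 and 3.20 points in Sham offspring, both called, and by 0.73 and 1.22 points in PM offspring, neither called. The difference between these OVA effects did not pass the test, with a limma adjusted p for the interaction of 0.571 for Csf2rb-w3 and 0.688 for Csf2rb-w4. After the libraries were centred both were called in PM offspring too (limma adjusted p = 0.0306 and 0.00405). Csf2rb-w6 was called only in PM offspring, at -2.84 points, and lost that call after centring (limma adjusted p = 0.0735).

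Csf1r, the receptor for macrophage colony-stimulating factor, fell by less and over more windows. In Sham offspring 4 of its 9 windows were called and in PM offspring 6, all lower, with differences over all 9 windows from -3.55 to 1.38 points and from -4.68 to 0.26 points. Csf1r-w1 (chr18:61097675-61102272), at the annotated start, had values of 71.1 to 77.1 (median 74.1) in Sham, 71.2 to 76.7 (median 72.7) in Sham-OVA, 71.7 to 80.5 (median 75.1) in PM and 68.8 to 75.1 (median 71.4) in PM-OVA. These ranges overlapped in both comparisons, and the window was called only in PM offspring (-3.77 points, limma adjusted p = 0.00954). The start in Csf1r-w1 is that of the processed transcript Csf1r-206 alone. Csf1r-w2, which holds the starts of the other annotated transcripts, was called lower in both comparisons, with overlapping ranges (-2.85 and -3.71 points, limma adjusted p = 0.0144 and 0.00106).

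Csf1r-w3 (chr18:61105926-61109335), the window after the one that holds the starts of 5 of the 6 annotated transcripts, was the least methylated Csf1r window. It ran from 55.1 to 58.6 (median 57.2) in Sham, 51.4 to 60.0 (median 53.8) in Sham-OVA, 55.4 to 60.7 (median 58.2) in PM and 48.0 to 58.1 (median 53.4) in PM-OVA. It was called in PM offspring (-4.68 points, limma adjusted p = 0.00352) and not in Sham offspring (-2.70 points, limma adjusted p = 0.107), where the adjusted p was 0.0180 without Sham-OVA replicate 7. The smallest limma adjusted p for the interaction among the Csf1r windows was 0.688.

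Csf3r, the receptor for the granulocyte factor G-CSF, was called in 1 of its 5 windows in each comparison. Csf3r-w2 (chr4:126027023-126032150), which holds the start of Csf3r-201, ran from 78.4 to 80.7 (median 79.6) in Sham, 76.1 to 78.3 (median 77.3) in Sham-OVA, 77.8 to 81.9 (median 79.8) in PM and 74.5 to 78.7 (median 76.3) in PM-OVA. The ranges overlapped in PM offspring and lay 0.127 points apart in Sham offspring. The differences were -2.31 and -3.12 points (limma adjusted p = 0.0138 and 0.000733).

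Csf3r-w1 (chr4:126023692-126027022), at the gene's start, differed by -2.89 points in both comparisons and was not called (limma adjusted p = 0.181 and 0.145). Its values spread over 44.3 to 61.0 in Sham-OVA and 48.6 to 58.8 in Sham, against 51.6 to 55.5 in PM-OVA and 55.2 to 59.1 in PM. Without Sham-OVA replicate 7 the Sham difference was -4.36 points with a limma adjusted p of 0.0192. In a fit of the PM and PM-OVA libraries alone the limma adjusted p was 0.00949.

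**Figure D3:**
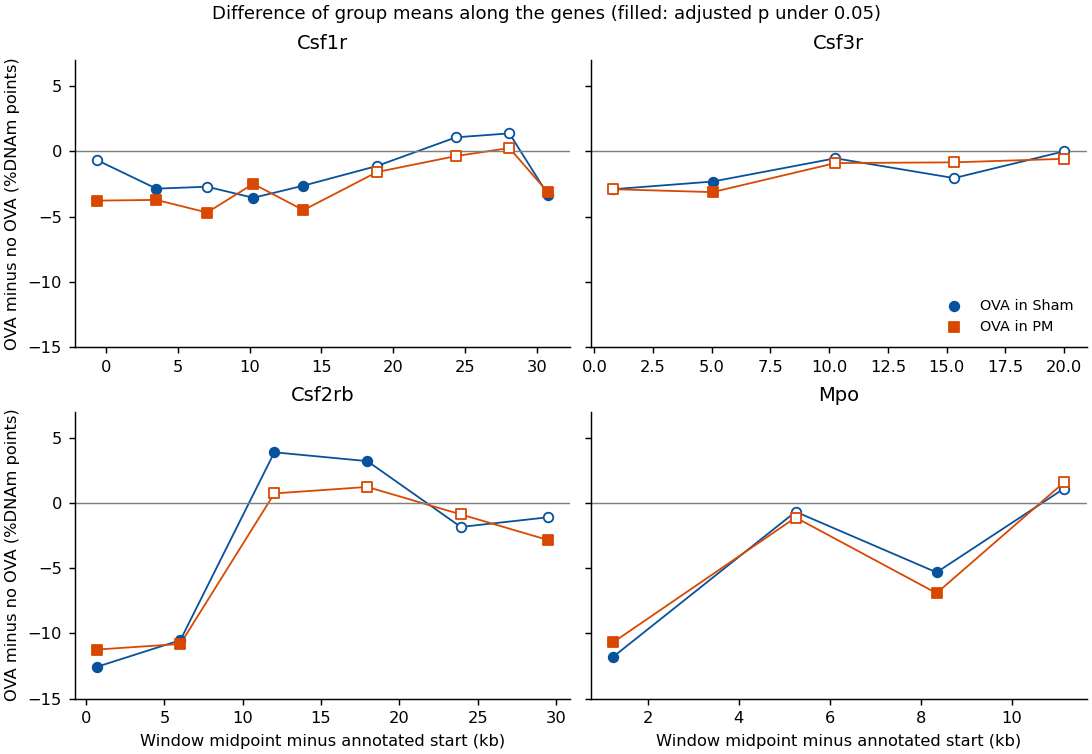
Difference of group means, OVA minus unchallenged, in percentage points (y axis) along Csf1r, Csf3r, Csf2rb and Mpo, against the distance of the window's midpoint from the annotated start in kb (x axis), for Sham offspring (blue circles) and PM offspring (orange squares). Filled symbols mark an adjusted p under 0.05, and the points below -10 are Csf2rb-w1, Csf2rb-w2 and Mpo-w1.

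Mpo encodes myeloperoxidase, the peroxidase of neutrophil and monocyte granules. Mpo-w1 (chr11:87793078-87796556), at its start, had lowest, median and highest values of 61.0, 64.6 and 66.3 in Sham, 49.1, 51.4 and 58.9 in Sham-OVA, 57.0, 65.0 and 66.5 in PM, and 50.0, 52.8 and 57.0 in PM-OVA. The ranges did not overlap within either comparison, although the gap in PM offspring was only 0.006 points. In Sham offspring the mean fell, being 64.3% ± 1.61 (SD, n = 7) without and 52.5% ± 3.48 (SD, n = 7) with OVA (log2 ratio -0.69, SE 0.08, limma adjusted p = 4.16e-07). In PM offspring the mean fell, being 63.6% ± 3.37 (SD, n = 7) without and 52.9% ± 1.99 (SD, n = 8) with OVA (log2 ratio -0.63, SE 0.08, limma adjusted p = 6.56e-07).

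Mpo-w3, with 582 coding bases, differed by -5.32 points in Sham offspring and by -6.91 in PM offspring, both called. Mpo-w2 and Mpo-w4 were not called in either comparison. The first 3 Mpo windows also overlap the gene Gm11505, and Mpo-w4 overlaps Lpo, which encodes another peroxidase, so these values cannot be assigned to Mpo alone.

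Lyz2 encodes lysozyme, a bacteriolytic enzyme abundant in macrophages and neutrophils. Lyz2-w1 (chr10:117280766-117286000) holds its start and more than 2000 bases upstream. The 201 bases before the start (chr10:117282322-117282522, minus strand, RefSeq promoter entry on GRCm38, cut where the annotated transcript begins) are shown with the single CpG in capitals, because they show how CpG-poor this promoter is.
Lyz2: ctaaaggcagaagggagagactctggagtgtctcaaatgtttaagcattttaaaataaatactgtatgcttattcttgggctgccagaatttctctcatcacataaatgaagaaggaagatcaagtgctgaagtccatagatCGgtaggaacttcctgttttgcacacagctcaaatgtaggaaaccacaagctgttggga

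That stretch held 1 match to TGTGGT and none to GAGGAAGT or TTGCNNAA. Lyz2-w1 ran from 58.9 to 70.5 (median 65.2) in Sham, 56.6 to 62.3 (median 58.1) in Sham-OVA, 56.3 to 63.7 (median 63.0) in PM and 54.9 to 59.6 (median 58.7) in PM-OVA, with overlap in both comparisons. The differences were -5.61 points (limma adjusted p = 0.00197) and -3.65 points (limma adjusted p = 0.0285). The second call was lost without any 1 of PM replicates 1, 2, 4 and 6 or PM-OVA replicate 4, where the limma adjusted p ran from 0.0541 to 0.0605. It was also lost without the libraries named Rel (limma adjusted p = 0.0717) and after centring (-2.67 points, limma adjusted p = 0.0898). Lyz2-w2 differed by 2.13 and 2.17 points and was not called, but after centring it was called higher in PM offspring (3.15 points, limma adjusted p = 0.0186).

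**Figure D4:**
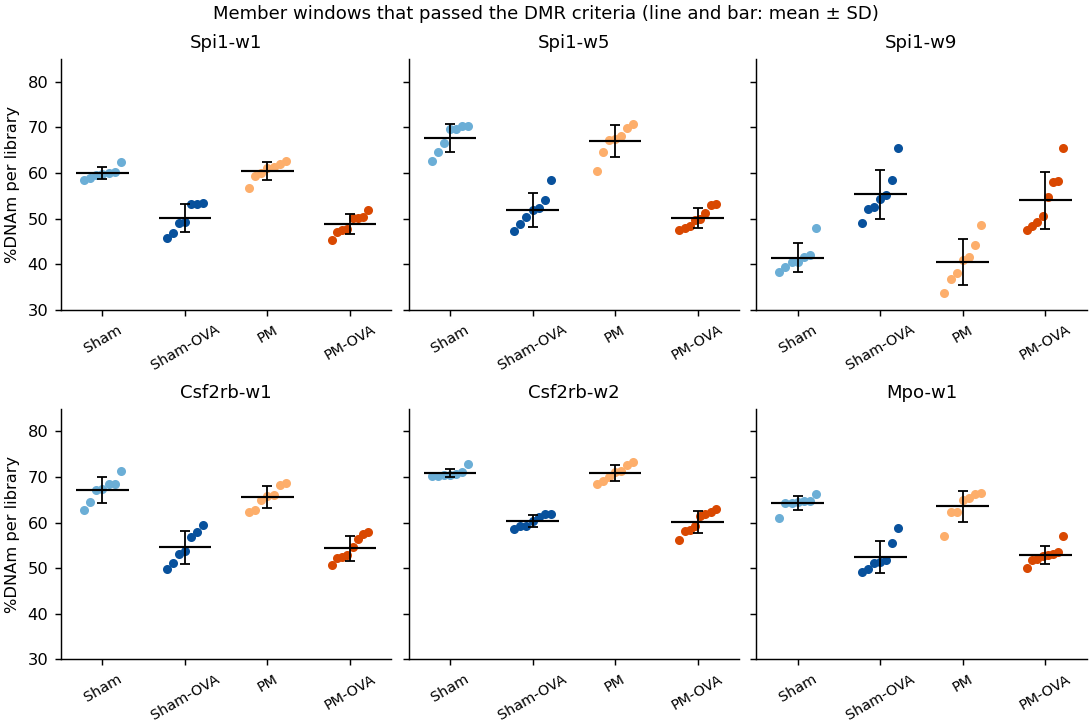
%DNAm of each library (points) in the 6 member windows that were DMRs in at least 1 OVA comparison, by group, with the mean ± SD as a line and bar. In Spi1-w1, Spi1-w5, Csf2rb-w1 and Csf2rb-w2 all 15 challenged libraries lie below all 14 unchallenged ones, and in Spi1-w9 the challenged groups sit higher, at means of 55.3 and 54.0%.

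Averaged over all windows of a gene, 7 of the 9 genes were called lower after OVA in Sham offspring, where 39.6% of 38037 genes were called, 27.7% lower and 12% higher. In PM offspring 7 were called lower as well, against 54.3% of genes, 47.4% lower and 6.93% higher. Cebpa and Lyz2 were the exceptions in both. After centring, 4 genes were called in Sham offspring, Cebpe, Csf1r, Csf2rb and Mpo, all lower, where 44.2% of genes were called, 22.9% lower and 21.3% higher. In PM offspring the same 4 were called lower and Cebpa was called higher (limma adjusted p = 0.0208), where 48.7% of genes were called, 25.5% lower and 23.2% higher. The Cebpa difference in PM offspring was 0.0204 points without centring and 1.00 with it. Centring moved the median difference of all windows in PM offspring by a like amount, from -1.03 to -0.0534 points. Centring ended the calls of Spi1 (limma adjusted p = 0.0736 and 0.0916), Cebpb (0.119 and 0.923) and Csf3r (0.0521 and 0.227). The largest fall was in Cebpe. Its Sham mean was 75.6% ± 1.34 (SD, n = 7) and its Sham-OVA mean 66.8% ± 2.56 (SD, n = 7) (limma adjusted p = 4.82e-06). Its PM mean was 75.3% ± 2.20 (SD, n = 7) and its PM-OVA mean 69.0% ± 3.27 (SD, n = 8) (limma adjusted p = 0.000109). The Spi1 mean over its 10 windows differed by -1.59 and -2.05 points, less than any of its first 5 windows. With the median over windows in place of the mean, the Csf1r and Csf2rb values in Sham offspring were 0.725 and 0.61 points higher and were not called (limma adjusted p = 0.359 and 0.389), and 4 genes were called in each comparison.

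Maternal PM2.5 exposure came with no called member window. For PM against Sham without OVA, 0 of 42 windows were called, and 3 had an unadjusted p under 0.05, Csf1r-w4, Csf2rb-w3 and Csf2rb-w4. For PM-OVA against Sham-OVA, 0 were called and 1 had an unadjusted p under 0.05, Cebpe-w1, which was 3.94 points higher in PM-OVA (limma adjusted p = 0.824). For the interaction, which sets the OVA effects of PM and Sham offspring against each other, 0 were called and 1 had an unadjusted p under 0.05, Csf2rb-w3. Of all windows, 0% were called in each of these 3 comparisons, and 5.79%, 5.96% and 7.4% had an unadjusted p under 0.05. On the gene mean 0 of the 9 genes were called in each, again with 0% of all genes. The largest differences among the members were 2.58 points lower in Lyz2-w1 and 2.49 points higher in Csf2rb-w4 for PM against Sham, both smaller than the spread between the lowest and highest library within those groups.

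The other genes of the myeloid programme, from lists drawn up for this work, gave mixed directions, and their shares called stand against 35.6% of all windows in Sham offspring and 44.1% in PM offspring. Among the windows of further myeloid transcription factors (139 windows, 9 genes), 55 were called higher and 15 lower in Sham offspring, and 42 higher and 15 lower in PM offspring, which is 50.4% and 41% of its windows. In each comparison 10 windows of this list were higher DMRs and 4 were lower DMRs, where 0.775% (Sham) and 0.584% (PM) of all windows were DMRs. Genes with DMRs in both comparisons included Gfi1, a repressor active in granulocyte precursors, and Runx1, a factor of blood stem cells. A Gfi1 window (chr5:107721362-107721744) had group means of 15.9% in Sham, 43.4% in Sham-OVA, 14.4% in PM and 37.3% in PM-OVA. In Runx1, a window at chr16:92824497-92826928 fell from 57.5 to 35.0% and one at chr16:92695534-92696712 rose from 14.9 to 34.9% in Sham offspring. Zeb2 had a DMR only in Sham offspring and Klf4 only in PM offspring, and no window of this list had an interaction adjusted p under 0.05.

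Among cytokine and receptor genes (12 genes) 22 windows were called higher and 21 lower in Sham offspring, and 14 higher and 33 lower in PM offspring, 42.6% and 46.5% of its windows. DMRs lay in Kit and Csf2ra, both higher, in Il5ra, the IL-5 receptor subunit that pairs with the product of Csf2rb, which was lower in Sham offspring, and in Flt3, lower in PM offspring. The Il5ra window also fell in PM offspring, from a mean of 56.5 to 47.3%, and the Flt3 window in Sham offspring, from 60.8 to 51.0%. Both were short of the DMR minimum. Among granule enzyme genes (31 windows, 12 genes) 2 were called higher and 15 lower in Sham offspring, and 1 higher and 18 lower in PM offspring, 54.8% and 61.3% of its windows, with no DMR. Among myeloid surface and signalling genes (106 windows, 12 genes) 15 were called higher and 23 lower, then 9 higher and 25 lower, which at 35.8% and 32.1% of its windows is no more than the share of all windows in PM offspring and close to it in Sham offspring. DMRs lay in Fgr, a Src-family kinase, lower in both, and in Tyrobp, an adaptor of myeloid receptors, lower in Sham offspring. The Tyrobp window fell in PM offspring too, from a mean of 56.6 to 47.1%, short of the DMR minimum.

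Lung homogenate mixes many cell types, and a changed share of a cell type cannot be told apart here from changed methylation within cells. Windows of genes that mark other cells were counted in the same way, against the same shares of all windows (35.6% and 44.1%). Of 14 windows of eosinophil genes, 7 were called lower and 1 higher in Sham offspring and 8 lower in PM offspring (57.1% in each), and their mean ran from 69.6 to 70.9% in Sham, 66.7 to 69.0% in Sham-OVA, 70.1 to 72.1% in PM and 66.6 to 67.8% in PM-OVA. The mean over the 42 myeloid windows ran from 64.2 to 65.0%, 61.8 to 64.4%, 64.4 to 65.8% and 61.9 to 63.0% in the same order. The upper end in Sham-OVA was replicate 7, which at 64.4% lay within the Sham range while the other Sham-OVA libraries had 61.8 to 62.4%, and it was also the highest Sham-OVA library for the eosinophil windows (69.0%) and the granule enzyme windows (64.4%). Without it, 27 member windows were called and 7 were DMRs in Sham offspring, Spi1-w1 (-10.3 points) and Cebpe-w1 (-10.2 points) being added. The shares of all windows in that fit are not given here.

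For T cell genes (66 windows) 22 were called lower and 11 higher, then 24 lower and 6 higher (50% and 45.5%), and their mean ran from 69.1 to 70.5%, 68.1 to 69.3%, 69.5 to 70.7% and 68.0 to 69.4%. For B cell genes (150 windows) 35 were lower and 34 higher, then 44 lower and 24 higher (46% and 45.3%), and the mean ran from 67.9 to 68.8%, 67.0 to 69.1%, 68.3 to 69.3% and 66.9 to 68.4%. Of the endothelial windows (90) 38 were called higher and 12 lower, then 34 higher and 19 lower (55.6% and 58.9%), with means of 67.4 to 69.9%, 69.4 to 71.7%, 67.3 to 70.7% and 69.2 to 71.4%. Of the epithelial windows (45) 11 were higher and 4 lower, then 6 higher and 8 lower (33.3% and 31.1%, below the share of all windows), with means of 53.1 to 54.6%, 53.7 to 55.1%, 53.6 to 55.0% and 53.2 to 54.7%. Of the mesenchymal windows (64) 14 were higher and 21 lower, then 9 higher and 25 lower (54.7% and 53.1%), with means of 65.5 to 66.9%, 65.0 to 66.6%, 65.6 to 67.5% and 64.8 to 66.1%. DMRs lay in genes of other cells too. In both comparisons they were in Lat (T cell, lower), Blk and Cd79b (B cell, lower), Pax5 (B cell, higher) and Pecam1 (endothelial, 1 window lower and 1 higher), and in Sham offspring also in Epx (eosinophil, lower) and Cdh5 (endothelial, higher). In PM offspring the Epx window fell from a mean of 78.9 to 69.7% and the Cdh5 window rose from 60.5 to 70.1%. Both were short of the DMR minimum. The part of cell composition in the myeloid values was not tested.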

How the data were processed

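Lung DNA of 29 offspring was profiled by WGMS. Per the labels and the methods, the authors used Trim Galore for trimming and DRAGEN for mapping to GRCm38 and for methylation calls, then averaged per-base calls over windows of a fixed number of CpGs in SeqMonk and named each window overlapping an Ensembl gene. The deposited values are a percent methylation per window and library, with no counts, no coverage and no stated scaling between libraries. The count model of the methods was therefore not used.

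Each percentage was transformed to log2((percent + 1)/(101 - percent)). A linear model with 4 groups was fitted over all 29 libraries with limma (version 3.58.1, R 4.3.3) to the 259167 windows with at least 3 values in every group, leaving out 1519. Contrasts were the effect of OVA in each kind of offspring, that of PM at each OVA state, and their interaction. The p-values are 2-sided, adjusted by Benjamini-Hochberg across every tested window. The same fit was made on the mean over the windows of each of 38037 genes. Replicate numbers did not pair the libraries. All windows were checked to start and end on a CpG in GRCm38, and annotation was taken from GENCODE M21 (Python 3.11.15, pysam 0.24.0).

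For each member gene, the window at its start (or nearest to it), the window with the largest OVA difference and every DMR are given in full, and other genes are named for a DMR, apart from a result that is not reported here. RefSeq promoter sequences were found for 5 of the 9 genes. Members, lists and tests were chosen with earlier results of these data known. Alternatives were the percent scale, other offsets, centred libraries, fits of 2 groups, complete windows, no windows under 5 percent, a trended and robust fit, a replicate block, each library left out, the PM-OVA libraries named Rel left out, other thresholds, members by overlap, and medians over windows.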

Additional observations from a re-analysis of the deposited data

Results flagged for a closer look

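In 9 of 168 sets of libraries (each member window in each group), the highest or lowest library stood further from its neighbour than Dixon's critical value allows, where chance alone gives about 1 set in 20. The highest library stood apart for Spi1-w7 in PM (replicate 1, 73.97% against the next at 69.7%), for Spi1-w9 in Sham (replicate 7, 48.01% against 41.99%) and for Cebpe-w1 in Sham-OVA (replicate 7, 69.32% against 64.1%). The same held for Csf1r-w2 in Sham (replicate 3, 86.97% against 84.8%), Csf3r-w5 in Sham-OVA (replicate 4, 77.78% against 75.8%), Csf2rb-w2 in Sham (replicate 4, 72.88% against 71.0%) and Csf2rb-w4 in Sham-OVA (replicate 1, 80.43% against 77.3%). The lowest library stood apart for Csf2rb-w4 in PM (replicate 7, 74.09% against 76.3%) and for Mpo-w1 in Sham (replicate 2, 60.99% against 64.3%). Leaving out any 1 of these libraries ended no call of the window in which it stood apart.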

How the results depend on the processing

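The 5 Sham and 6 PM DMRs among the members kept an adjusted p under 0.05 and their sign under each other fit run at that threshold, but centring took 2 of the PM windows below 10 points and left 4. Of the member windows called, 22 of 25 in Sham offspring and 20 of 25 in PM offspring kept their call under all alternatives run at 0.05, and 3 and 5 lost it under at least 1. With libraries left out one at a time, the windows called numbered 24 to 27 (Sham) and 24 to 26 (PM), the DMRs 5 to 7 and 6 to 6, and the genes called on the mean 6 to 8 and 6 to 7. An adjusted p under 0.000001 left 5 and 6 called windows, by its own construction. A minimum difference of 5 points gave 14 and 14 DMRs, and 15 points gave 1 and 1. The shares of all windows at these thresholds, and with libraries left out, are not given here, so these member counts cannot be set against them. On the gene mean, centring the libraries left 4 genes called in Sham offspring and 5 in PM offspring, while the median over windows left 4 and 4. Signs turned for Cebpb-w1 and for the mean of Cebpb, which has a single window, after centring in PM offspring (0.0069 points). Centring moved the median difference of all windows in PM offspring by a like amount, from -1.03 to -0.0534 points. With the median over windows, signs turned for Csf1r (0.725) and Csf2rb (0.61) in Sham offspring, and the cause was not tested. Leaving out 1 library also gave calls to Csf2rb-w5 (without Sham replicate 1 or Sham-OVA replicate 1), Csf1r-w6 (PM-OVA replicate 1), Lyz2-w2 (PM-OVA replicate 3), Mpo-w4 (PM replicate 2) and the Lyz2 mean (Sham replicate 3), and took them from the means of Csf3r (Sham-OVA replicate 6) and Cebpb (PM replicate 7). Same-numbered libraries of different groups had correlations of their deviations between -0.067 and 0.088, so the numbers did not pair them. With a replicate block 25 and 25 windows, 5 and 6 DMRs, and 8 and 7 genes were called. The comparisons of PM with Sham and the interaction gave 0 called members under every alternative. The depth of a window is unknown, so precision rests on the number of libraries, and levels under 5 percent, as in Cebpa and Cebpb, lie near the offset of 1 point.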

Other observations

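Over the 29 libraries, Spi1-w5 varied most closely with windows named for Gm15518 (Pearson r = 0.978, and 0.808 after group means were subtracted), Ubac2 (0.978 and 0.806), Nf1 (0.977 and 0.784), Fam117a (0.971 and 0.754) and Gm16364 (0.968 and 0.775). Among the members, Spi1-w5 and Mpo-w1 had r = 0.966, and 0.810 with group means subtracted, whereas Spi1-w5 and Csf2rb-w2 had r = 0.903 and 0.042. Spi1-w1 and Spi1-w9 had r = -0.864 and -0.524. These values describe libraries that share the OVA contrast, and no test was made of them.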
